A study of Mus musculus with 9 samples.

Results

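Interferon signalling was examined at its first step in mouse liver, through the genes of 2 interferon ligands and of the 4 receptor chains that bind them. The set comprised Ifnb1 (interferon β) and Ifng (interferon γ), Ifnar1 and Ifnar2 (the receptor chains for type I interferons), and Ifngr1 and Ifngr2 (the receptor chains for interferon γ). The genes were taken from a list of names. All 6 were on the array, among 27670 gene names, and were read by 9 of its 41174 probes. Each of the 6 genes was among the 16796 genes tested. Ifnb1 entered only through the arrays of the group in which it was high, so that it could hardly have entered without a difference.

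Liver RNA came from male C57BL/6 mice aged 3 months and was hybridised in a single Cy3 channel to 9 Agilent arrays. The untreated group had 3 arrays (replicates 2, 3 and 4). The AAV-GFP group had 3 arrays from mice given an adeno-associated virus (AAV) with green fluorescent protein, a control for the vector. The AAV-hGRβ group had 3 arrays from mice given an AAV labelled for the human glucocorticoid receptor β, a splice form of the receptor that does not bind glucocorticoid as the α form does. The mice carried no other labelled allele or agent. The promoter, serotype and dose of the vectors and the interval to sampling are not given in the sources used here. The labels do not say that replicates were separate animals, so p-values measure the spread between these samples, which may be technical.

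Type I interferons, which include interferon β and the many interferon α proteins, are secreted by cells that sense viral nucleic acid. They bind IFNAR1 and IFNAR2, whose kinases TYK2 and JAK1 phosphorylate STAT proteins, and these join IRF9 to switch on antiviral genes. Interferon γ comes mainly from natural killer (NK) cells and T cells, and its receptor, IFNGR1 with IFNGR2, signals through JAK1 and JAK2. Hepatocytes and the liver macrophages named Kupffer cells carry both receptors.

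Arrays differed in brightness: 54.0% to 82.0% of gene spots passed the scanner software's well-above-background test, and median processed intensities ran from 37.7 to 79.0. The lowest share was on untreated replicate 3 and the highest on AAV-hGRβ replicate 1. All 8 measured hepatocyte markers, among them albumin (Alb), were well above background on every array. The arrays were scanned on 2 days, and 1 array of each group (untreated replicate 2, AAV-GFP replicate 3 and AAV-hGRβ replicate 1) was scanned on the second day. They lay on 5 slides, 3 of which held arrays of 1 group only and more than 1 array, so slide is partly tied to group. Within the first scan day each group lay on 1 slide of its own, so slide and group cannot be told apart there. Each level is a log2 value scaled within its array: a gene at the 75th percentile of that array has a level of 0, and 1 unit is a doubling. Levels of different probes cannot be set against each other, because each probe has its own brightness.

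The ligand genes are shown first by the DNA before their start sites, where the factors that switch them on are known to bind, with 1 receptor gene beside them for contrast. All 6 genes had a window in RefSeq's promoter table for GRCm38.p6, and 250 bases before the start are given 5′ to 3′ for 3 of them. Capitals mark letters that match AANNGAAA (the core bound by interferon regulatory factors, IRFs), the NF-κB element as searched (GGG and TTCC with any 3 bases between them) or TTCNNNGAA (the STAT element).
Ifnb1, chr4:88522795-88523044, minus strand: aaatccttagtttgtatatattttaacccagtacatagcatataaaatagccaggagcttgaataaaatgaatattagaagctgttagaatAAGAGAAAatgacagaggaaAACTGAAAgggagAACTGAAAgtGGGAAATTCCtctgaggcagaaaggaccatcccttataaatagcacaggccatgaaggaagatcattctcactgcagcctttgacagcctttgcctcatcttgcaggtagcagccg
Ifng, chr10:118440796-118441045, plus strand: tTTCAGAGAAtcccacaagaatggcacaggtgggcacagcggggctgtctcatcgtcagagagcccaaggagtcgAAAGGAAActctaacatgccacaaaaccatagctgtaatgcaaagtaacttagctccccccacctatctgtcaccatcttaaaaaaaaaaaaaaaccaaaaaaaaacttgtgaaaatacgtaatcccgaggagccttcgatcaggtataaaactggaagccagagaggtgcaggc
Ifngr2, chr16:91546809-91547058, plus strand: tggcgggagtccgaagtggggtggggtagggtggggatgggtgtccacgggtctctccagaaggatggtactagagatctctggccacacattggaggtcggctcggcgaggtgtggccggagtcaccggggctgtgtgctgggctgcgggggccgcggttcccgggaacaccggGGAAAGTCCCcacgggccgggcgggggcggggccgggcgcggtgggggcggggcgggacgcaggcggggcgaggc

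The Ifnb1 window held 3 AANNGAAA matches, starting at -159, -139 and -126 from the start site, followed by an NF-κB element match from -116 to -107. This stretch is the textbook interferon β enhancer, on which IRF3, IRF7, NF-κB and AP-1 assemble. Among the 32851 promoter windows of 300 bases in the table, 23.9% held AANNGAAA on either strand, 5.34% held it 2 or more times, and 5.56% held the NF-κB element. The Ifng window held 1 AANNGAAA match at -175 and 1 TTCNNNGAA match that ends at -241, a motif found in 8.3% of windows. Ifngr2 held the NF-κB element on the minus strand, from -75 to -66. Ifnar2 and Ifnar1 each held 1 TTCNNNGAA match, starting at -214 and -5, and Ifngr1 held none of the motifs. None of the 6 windows held the longer IRF element (AANNGAAA with GA before it), TGANTCA (AP-1) or AGAACA (a core glucocorticoid receptor site), which occurred in 3.44%, 7.81% and 19% of all windows. Every match of the longer IRF element also holds AANNGAAA. The 4 receptor promoters had a GC content from 57% to 74.33% and 14 to 31 CpG dinucleotides, against 42.67% and 3 for Ifnb1, 46% and 7 for Ifng, and medians of 52.67% and 7 over all windows. A match is a string of letters in the reference and was not tested for binding.

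Ifnb1 rose in the livers given AAV-hGRβ. Its single probe (chr4:87925845-87925904, minus strand, build mm7) had levels of -6.64, -6.02 and -5.77 on untreated replicates 2, 3 and 4. On AAV-GFP replicates 1, 2 and 3 the levels were -6.61, -7.01 and -6.54. On AAV-hGRβ replicates 1, 2 and 3 they were -2.36, -2.38 and -2.61. The 3 AAV-hGRβ arrays thus lay close together and far above the other 6, with no overlap. The gene was well above background on these 3 arrays and on none of the others, and on 4 of the other 6 the scanner software had put a substitute value in place of the signal.

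**Figure D1:**
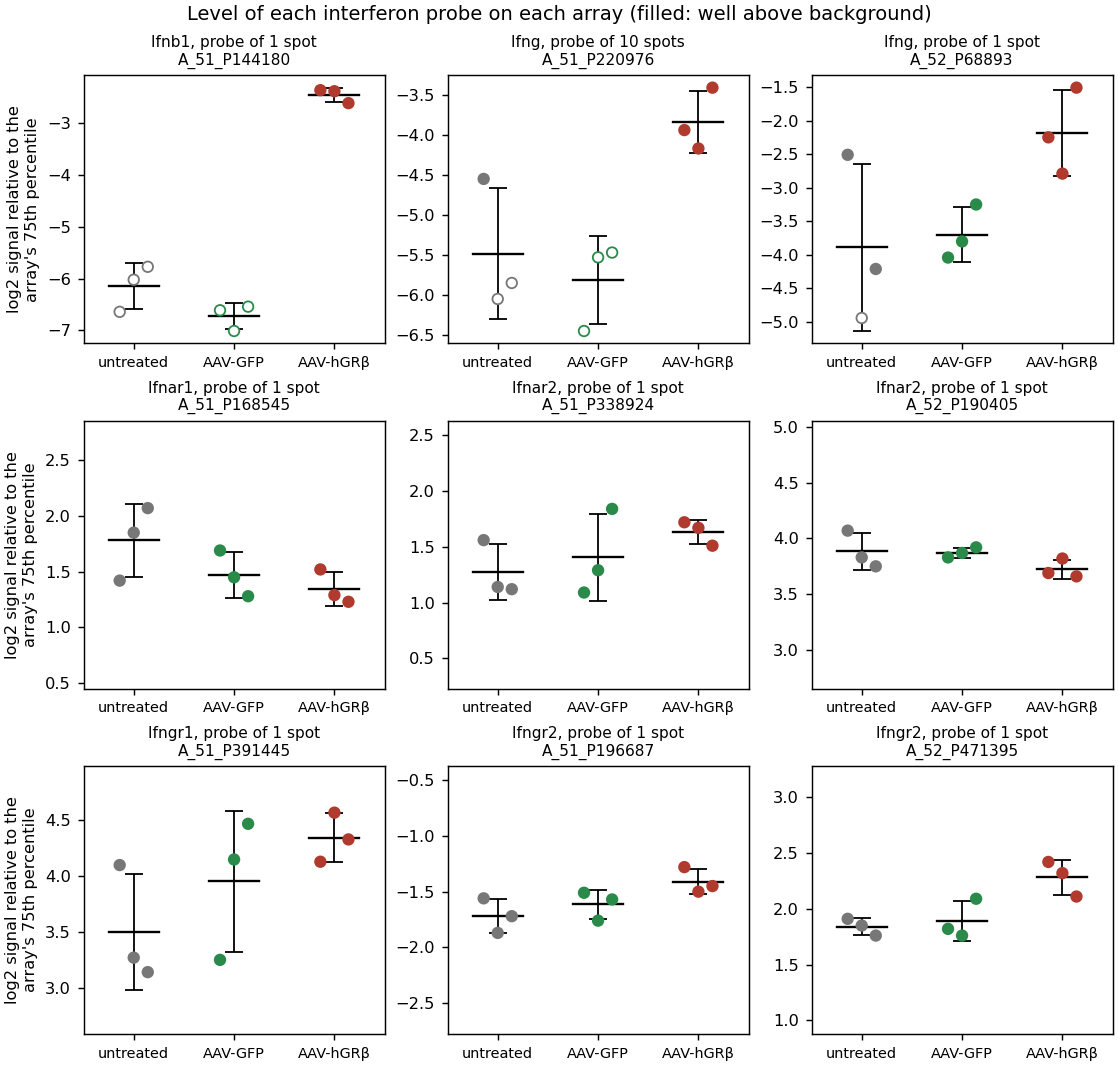
Level of each of the 9 probes on each array (vertical axes, log2 signal relative to the array's 75th percentile, ranges differ between panels), by group; bars give the mean and SD of 3 arrays, and open points mark arrays on which the probe was not well above background. The Ifnb1 points of AAV-hGRβ lie between -2.61 and -2.36, all others at or below -5.77.

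Because the low groups held no signal above background, the change in Ifnb1 is a bound. Against AAV-GFP the mean level was -2.45 ± 0.14 (SD, n = 3) in AAV-hGRβ and -6.72 ± 0.25 (SD, n = 3) in the control, a fitted difference of 4.27 (SE 0.25, 95% interval 3.71 to 4.83, limma adjusted p = 0.000657). All 3 AAV-GFP values were substitutes for the signal, so the control SD, the interval and the p-value describe processed values and no measured level. The gene also entered the test only through AAV-hGRβ. Set against the lowest signal that counted as well above background on the AAV-GFP arrays, the Ifnb1 level in AAV-hGRβ was at least 5.12-fold higher. This bound holds for the processed signal, compares mean levels and makes no allowance for spread. Against untreated liver, at -6.14 ± 0.44 (SD, n = 3), the difference was 3.69 (95% interval 3.14 to 4.25, limma adjusted p = 0.000815), or at least 4.70-fold. AAV-GFP and untreated livers were both below background, so no fold is given between them. In whole liver RNA, more cells of a type and more RNA per cell cannot be told apart.

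The unprocessed brightness showed the same separation at a low absolute level. The Ifnb1 spot had a mean intensity of 152, 127 and 146 scanner units on AAV-hGRβ replicates 1, 2 and 3, above local backgrounds of 70.0, 45.5 and 47.5. On the other 6 arrays it read 57.4 to 73.1, near local backgrounds of 51.0 to 74.0. The high spots were those of 1 group, but local background was not even across groups: it was lowest of all 9 arrays around the spots of AAV-hGRβ replicates 2 and 3. Within the first scan day the difference from AAV-GFP was 4.32, and within the second day, with 1 array a group, 4.18. With no filter on dim probes Ifnb1 kept its call (adjusted p = 0.00736). The call was lost under normexp, which models background over all spots and adds an offset of 50: the difference was -0.19 with the local backgrounds as deposited. It was 1.06 (limma adjusted p = 0.0721) once local backgrounds over 2 times the array median were replaced by that median, an alternative chosen after the data were seen.

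**Figure D2:**
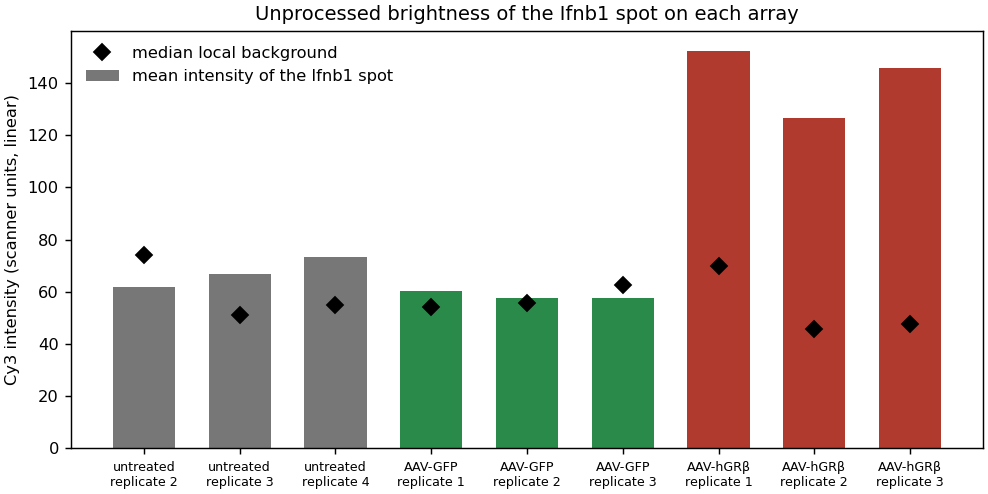
Mean Cy3 intensity of the Ifnb1 spot on each array (bars, linear scanner units, coloured by group) with the median local background around it (diamonds). The bars of AAV-hGRβ reach 127 to 152, and the other 6 stay between 57.4 and 73.1.

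Ifng, the second ligand, was also highest on AAV-hGRβ arrays but did not pass the test. The probe that stood for the gene (chr10:117841087-117841146, mm7) had levels of -2.51, -4.94 and -4.21 on untreated replicates 2, 3 and 4. It read -4.04, -3.80 and -3.25 on AAV-GFP replicates 1, 2 and 3, and -2.25, -2.79 and -1.51 on AAV-hGRβ replicates 1, 2 and 3. Every AAV-hGRβ array was above every AAV-GFP array, while untreated replicate 2 fell among the AAV-hGRβ values. The difference from AAV-GFP was 1.51 (95% interval 0.19 to 2.84, limma adjusted p = 0.347) and from untreated liver 1.70 (0.38 to 3.02, adjusted p = 0.128). AAV-GFP minus untreated was 0.19 (-1.14 to 1.51, adjusted p = 0.889). Leaving out untreated replicate 2 brought the difference from untreated liver to 2.39 (adjusted p = 0.0256). The first scan day alone gave 2.42 (adjusted p = 0.0236). These were the only 2 of 22 alternatives with a test that called Ifng against untreated liver. In both, the untreated arrays left lay on 1 slide that held no other group. The difference was 1.42 with slide as a random block (limma adjusted p = 0.474) and 1.64 with replicate number as a block (0.381). Under normexp it was 0.05 (0.977).

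A second Ifng probe, printed as 10 spots on each array (chr10:117840860-117840919, mm7), gave a view of technical error. Its mean levels were -4.55, -6.05 and -5.85 on untreated replicates 2, 3 and 4, then -6.45, -5.53 and -5.47 on AAV-GFP and -3.94, -4.17 and -3.41 on AAV-hGRβ replicates 1, 2 and 3. All spots kept on the AAV-hGRβ arrays (10, 9 and 10) were well above background, against 5 spots on untreated replicate 2, 1 on AAV-GFP replicate 2 and 0 on the other 4 arrays. The SD between spots of an array lay between 0.13 and 0.67. The AAV-hGRβ arrays exceeded all other arrays, with untreated replicate 2 next. The difference was 1.98 (95% interval 1.00 to 2.96) from AAV-GFP and 1.64 (0.66 to 2.62) from untreated liver, with limma adjusted p = 0.104 and 0.0781 over all 24273 probes. Relative to AAV-GFP, where the probe was not well above background on any array, the level was at least 1.95-fold higher. This probe passed the filter only through AAV-hGRβ, so its intervals, p-values and bound are no separate support for a rise in Ifng.

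**Figure D3:**
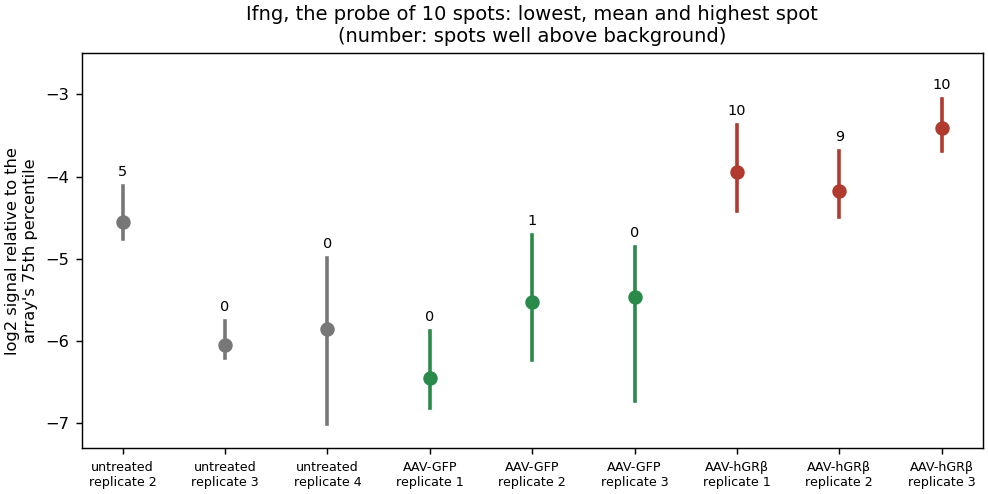
Mean level of the Ifng probe with 10 spots on each array (points, log2 signal relative to the array's 75th percentile), with lines from the lowest to the highest spot kept and the number of spots well above background above them. The means of AAV-hGRβ, -4.17 to -3.41, lie above those of the other arrays, the nearest of which is untreated replicate 2 at -4.55.

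The chains of the type I receptor differed little between groups. Ifnar1 (chr16:91557140-91557199, mm7) had levels of 1.42, 1.85 and 2.07 on untreated replicates 2, 3 and 4. Its levels were 1.69, 1.45 and 1.28 on AAV-GFP and 1.52, 1.29 and 1.23 on AAV-hGRβ replicates 1, 2 and 3. The ranges of the 3 groups overlapped, in the order untreated, AAV-GFP, AAV-hGRβ by mean, and no neighbours in that order differed beyond their spread. AAV-hGRβ minus AAV-GFP was -0.12 (95% interval -0.60 to 0.36, limma adjusted p = 0.898), and AAV-hGRβ minus untreated was -0.43 (-0.91 to 0.05, adjusted p = 0.231). AAV-GFP minus untreated was -0.31 (-0.79 to 0.17, adjusted p = 0.528). The direction against AAV-GFP was not stable, with 0.25 within the second scan day and 0.01 with slide as a random block.

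Ifnar2 was read by 2 probes that went in opposite directions. The brighter one, in sequence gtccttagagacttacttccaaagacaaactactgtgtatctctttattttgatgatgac (60 bases, chr16:91444402-91444461, mm7), is shown because it stood for the gene. Its levels were 4.07, 3.83 and 3.75 on untreated replicates 2, 3 and 4, then 3.83, 3.87 and 3.92 on AAV-GFP and 3.69, 3.82 and 3.66 on AAV-hGRβ replicates 1, 2 and 3. The AAV-hGRβ arrays lay just below the AAV-GFP arrays, without overlap, by -0.15 (95% interval -0.50 to 0.20, limma adjusted p = 0.801). They overlapped the untreated arrays, with a difference of -0.16 (-0.51 to 0.19, adjusted p = 0.504), and AAV-GFP minus untreated was -0.01 (adjusted p = 0.980). The second probe (chr16:91455837-91455896) had levels of 1.56, 1.14 and 1.12 on untreated, 1.09, 1.29 and 1.84 on AAV-GFP and 1.72, 1.67 and 1.51 on AAV-hGRβ arrays in replicate order, with AAV-hGRβ inside the range of AAV-GFP. It gave 0.23 (-0.29 to 0.75) against AAV-GFP and 0.36 (-0.16 to 0.88) against untreated liver, with adjusted p = 0.804 and 0.338 over all probes. Thus no direction can be given for Ifnar2, and the intervals of the main probe against these groups reach from -0.51 to 0.20 on the log2 scale.

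The chains of the interferon γ receptor were both highest in mean on AAV-hGRβ arrays, and neither passed the test. Ifngr1 (chr10:19335421-19335480, mm7), the ligand-binding chain, had levels of 4.10, 3.27 and 3.14 on untreated replicates 2, 3 and 4. It read 3.25, 4.15 and 4.47 on AAV-GFP and 4.13, 4.57 and 4.33 on AAV-hGRβ replicates 1, 2 and 3. All AAV-hGRβ arrays were above all untreated arrays, by a margin of hundredths over untreated replicate 2, and AAV-GFP spanned both ranges. The difference was 0.38 (95% interval -0.43 to 1.19, limma adjusted p = 0.777) from AAV-GFP and 0.84 (0.03 to 1.65, adjusted p = 0.184) from untreated liver. AAV-GFP minus untreated was 0.46 (-0.35 to 1.27, adjusted p = 0.563). Within the second scan day AAV-hGRβ minus AAV-GFP was -0.35.

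Ifngr2, the chain that brings in JAK2, was read by 2 probes that went the same way. The probe that stood for the gene (chr16:91614083-91614142, mm7) had levels of 1.91, 1.85 and 1.76 on untreated replicates 2, 3 and 4. It read 1.82, 1.76 and 2.09 on AAV-GFP and 2.42, 2.32 and 2.11 on AAV-hGRβ replicates 1, 2 and 3. The AAV-hGRβ arrays were above all 6 others, the closest being AAV-GFP replicate 3. The difference from AAV-GFP was 0.39 (95% interval 0.02 to 0.77, limma adjusted p = 0.400) and from untreated liver 0.44 (0.07 to 0.82, adjusted p = 0.148). AAV-GFP minus untreated was 0.05 (-0.33 to 0.42, adjusted p = 0.899).

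The other Ifngr2 probe is shown because the array files place its 60 bases over 1153 bases of genome (chr16:91612093-91613245, mm7), with an intervening gap of 1093 bases, so that it reads spliced RNA: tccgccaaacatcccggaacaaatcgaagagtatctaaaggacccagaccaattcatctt. Its levels were -1.56, -1.87 and -1.72 on untreated replicates 2, 3 and 4, then -1.51, -1.76 and -1.57 on AAV-GFP and -1.28, -1.50 and -1.45 on AAV-hGRβ replicates 1, 2 and 3. The AAV-hGRβ arrays were again the 3 highest. The differences were 0.20 (95% interval -0.17 to 0.58) from AAV-GFP and 0.31 (-0.06 to 0.68) from untreated liver, with limma adjusted p = 0.739 and 0.265 over all probes.

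**Figure D4:**
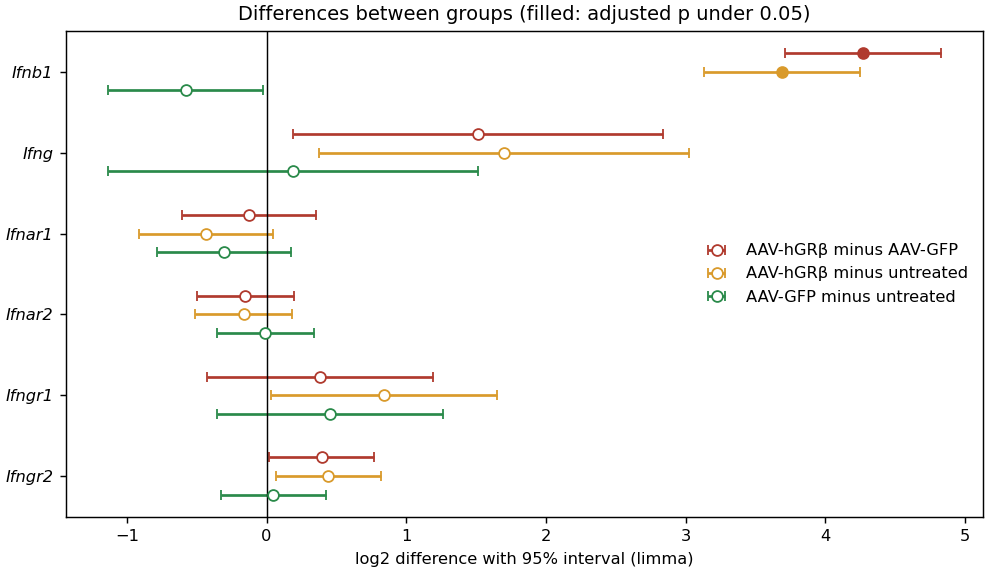
Log2 difference between groups for each of the 6 genes with the 95% interval from limma (horizontal axis); filled points have an adjusted p under 0.05. Ifnb1 is filled at 4.27 against AAV-GFP and 3.69 against untreated liver, and no other point is filled.

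In AAV-hGRβ minus AAV-GFP, 1 of the 6 genes was called, against 0.917% of all genes tested (154 of 16796; 0.839% rose and 0.0774% fell). In AAV-hGRβ minus untreated it was also 1 of 6, against 3.26% of all genes (2.5% rose and 0.756% fell), and in AAV-GFP minus untreated 0 of 6, against 0%. In the last comparison 1640 genes (9.76%) had an unadjusted limma p under 0.05. Since Ifnb1 had to differ to enter the test, nothing is read from the share. The groups did not overlap for 4 of 6 genes in AAV-hGRβ minus AAV-GFP (Ifnb1, Ifng and Ifngr2 higher, Ifnar2 lower), against 15.7% of all genes (9.39% higher and 6.31% lower), and for 3 of 6 in AAV-hGRβ minus untreated (Ifnb1, Ifngr1 and Ifngr2, all higher), against 29.3% (15.1% higher). The median difference of the 6 genes was 0.39 from AAV-GFP and 0.64 from untreated liver, beside 0.03 and 0.10 over all genes. The comparisons share arrays pairwise and are not independent of each other. Scaling arrays to their median moved the median of all genes to -0.33 and -0.25, and the Ifngr1 and Ifngr2 differences from AAV-GFP to 0.02 and 0.03. With that scaling 332 genes rose and 257 fell against untreated liver, where the main scaling gave 420 and 127.

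Few of the other interferon ligands could be tested. Of 19 listed, which were the remaining type I and the type III genes, 13 were on the array and 5 passed the filter, and 0 of these 5 rose or fell in any comparison. Ifna1, an interferon α gene, differed by 0.64 between AAV-hGRβ and AAV-GFP and Ifna9 by 0.26 (limma adjusted p = 0.506 and 0.744), with the sign of Ifna9 turned under median scaling (-0.10) and quantile normalization (-0.05). Ifnab and Ifna13 differed by 0.45 and 0.53. Probes for Ifna2, Ifna11, Ifne and Ifnk were well above background on 0 arrays. The Ifna4 probe was well above background on 1 array, of AAV-hGRβ, and the Ifnl3 probe on 2 AAV-hGRβ arrays and 1 of each other group, so neither was tested. Interferon α genes are near-identical copies, so their probes may share targets.

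Of the other class II cytokine receptor chains, which share the fold of the interferon receptors, 0 of 5 tested rose against AAV-GFP and 1 rose against untreated liver. That gene was Il10ra, the ligand-binding chain for interleukin 10, at 1.25 (limma adjusted p = 0.0287), with 1.00 against AAV-GFP (adjusted p = 0.0995). Il10rb, the chain shared with the type III interferon receptor, differed by 0.49 from AAV-GFP, Il22ra1 by 0.75 and Il20rb by 0.30. Ifnlr1, the specific chain of the type III interferon receptor, was well above background on 0 arrays.

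Directly downstream, the 7 genes for receptor kinases, STATs and IRF9 had 0 calls against AAV-GFP, with differences from -0.15 to 0.87. Against untreated liver 1 of them rose and 0 fell, with differences from -0.75 to 1.02. With the mean of all probes of a gene, 1 rose against AAV-GFP. Stat2 and Irf9, which act together at type I targets, differed from AAV-GFP by 0.48 each, and Jak2 by -0.15. Of 11 genes listed as inhibitors of receptor signalling, 2 rose against AAV-GFP and 0 fell: Usp18, which blocks IFNAR2 signalling, by 2.16 and Isg15, a ubiquitin-like protein, by 3.11 (limma adjusted p = 0.00645 and 0.00918). Both are also counted among the type I targets below, and whether Isg15 acts as an inhibitor here was not tested. Socs1, which blocks the receptor kinases, differed by 1.06 (adjusted p = 0.0857) and Ptpn6, a phosphatase, by 0.47. The count of 2 was 1 without AAV-GFP replicate 1 (Isg15 3.05, adjusted p = 0.053) or with no filter, and 0 under normexp, within the first scan day or with every probe tested and no filter.

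Of 20 genes listed as inducers of type I interferon, 3 rose against AAV-GFP and 6 against untreated liver, and 0 fell. Whether they rose before or after Ifnb1 was not tested. Irf7, the factor that amplifies type I interferon transcription, rose by 2.65 against AAV-GFP (limma adjusted p = 0.00303). Zbp1, a sensor of nucleic acid, rose by 2.50 and Dhx58, a relative of the RNA sensors RIG-I and MDA5, by 1.72. Ifih1, which encodes MDA5, differed by 1.57 (adjusted p = 0.0762). The count of 3 was 2 without AAV-GFP replicate 1, AAV-hGRβ replicate 1 or AAV-hGRβ replicate 3 (Dhx58 adjusted p = 0.071 to 0.093), 1 under normexp and 0 within the first scan day. Among 9 genes whose products sit on the Ifnb1 enhancer, Irf7 rose and 0 fell, with a median difference of -0.05. Irf3 differed by -0.20, Jun by 0.48 and Hmga1 by 0.15. The sign of Hmga1 turned under median scaling (-0.21). Among 9 inducers of interferon γ tested 0 were called, with Il2rb, an interleukin receptor chain of NK and T cells, at 1.23 (adjusted p = 0.235), Tbx21 at 0.89, Il12a at 0.88 and Il15 at 0.48.

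Targets known mainly for type I interferon rose together in AAV-hGRβ livers. Of 16, 14 rose against AAV-GFP and 16 against untreated liver, and 0 fell. Between AAV-GFP and untreated liver 0 of the 16 were called, as were 0 of all genes tested. There 14 of the 16 differences were above 0, against 53.6% of all genes, with a median of 0.34 beside 0.04 over all genes. The median difference of the 16 from AAV-GFP was 1.98 (range 1.48 to 4.24), beside 0.03 over all genes. Ifi44 rose by 4.24, Oasl2, an oligoadenylate synthetase relative, by 3.56, and Oas1a, an oligoadenylate synthetase, by 3.25 (limma adjusted p = 0.00303, 0.00522 and 0.00303). The Ifit genes, whose products bind viral RNA, rose by 2.37 (Ifit1), 1.53 (Ifit2) and 2.47 (Ifit3). Oas2 and Oasl1 rose by 1.81 and 1.74, Rsad2, which encodes the antiviral enzyme viperin, by 1.86, and Cmpk2, Rtp4 and Mx2 by 1.71, 1.52 and 1.48, these 9 with limma adjusted p from 0.00689 to 0.0422. Mx1, an antiviral GTPase, and Oas3 missed the threshold, with 2.09 and 1.86 (adjusted p = 0.0995 and 0.128). The count fell to 5 without AAV-GFP replicate 1, to 7 without AAV-hGRβ replicate 1 and to 8 without AAV-hGRβ replicate 3, and was 9 under median scaling or with slide as a random block, 5 with no filter, 3 under normexp, 2 with every probe tested and no filter, and 0 within the first scan day alone.

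Of the 17 tested genes known mainly as interferon γ targets, 4 rose against AAV-GFP and 0 fell, with a median difference of 0.68. Gbp3, a guanylate-binding protein, rose by 2.84, Tgtp1, an immunity-related GTPase, by 2.26, Gbp6 by 2.20 and Cxcl9, a chemokine for T cells, by 1.78 (limma adjusted p = 0.00786, 0.0129, 0.0240 and 0.0222). The class II antigen presentation genes H2-Aa, H2-Ab1, H2-Eb1 and Cd74 differed by 0.14, 0.15, 0.29 and -0.01. The count was 1 without AAV-GFP replicate 1, AAV-hGRβ replicate 1 or AAV-hGRβ replicate 3, 1 with no filter or under normexp, and 0 within the first scan day or with every probe tested and no filter. Many genes of both lists answer to either interferon, and Usp18, Isg15, Irf7, Irf3, Irf1 and Socs1 stand in 2 lists each.

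**Figure D5:**
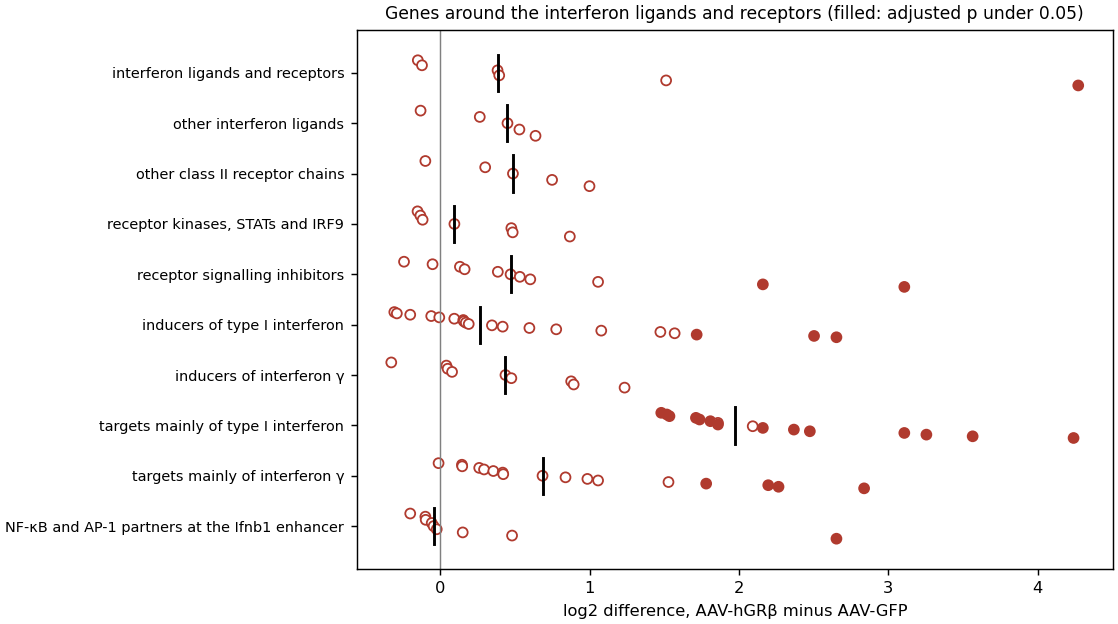
Log2 difference, AAV-hGRβ minus AAV-GFP (horizontal axis), of each tested gene by list; points are genes, filled where the limma adjusted p was under 0.05, and black lines are medians. Targets mainly of type I interferon have 14 filled points of 16, and receptor kinases, STATs and IRF9 have 0 of 7.

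Some markers of cells that make the ligands rose in AAV-hGRβ livers, and their part in the results was not tested. Of 8 NK cell markers tested, 3 rose against AAV-GFP and 0 fell, and the summed linear level of the list was 0.645 to 1.26 in untreated, 0.864 to 1.79 in AAV-GFP and 3.42 to 9.33 in AAV-hGRβ livers, in multiples of the array's 75th percentile. Gzma, a granzyme, rose by 3.73, Gzmb by 2.35 and Nkg7, a granule protein, by 2.22 (limma adjusted p = 0.0109, 0.0323 and 0.0412). The others did not pass: Klrd1 differed by 1.98, Ncr1 by 1.58, Klrb1c by 0.58 and Prf1 by 0.19 (adjusted p = 0.184, 0.579, 0.689 and 0.961). Klrk1, well above background on 0 AAV-GFP arrays, was at least 2.40-fold higher (adjusted p = 0.326). The sum weights each probe by its brightness. Nkg7 and Gzma had the highest mean levels of the list in AAV-hGRβ (0.81 and 0.66). Of 8 T cell markers 1 rose against AAV-GFP, Cd8a, by at least 12.7-fold (limma adjusted p = 0.00849). Against untreated liver 2 rose, Cd8a and Cd2 (1.49, adjusted p = 0.0409). The summed level of the T cell list was 2.15 to 2.34, 1.91 to 2.30 and 3.17 to 5.22 in the 3 groups. Cd8a was well above background on 0 untreated and 0 AAV-GFP arrays and entered the test only through AAV-hGRβ. All 8 T cell differences from AAV-GFP were above 0, with a median of 1.18, and 6 of 8 from untreated liver. Against AAV-GFP, Cd3d differed by 1.88, Cd3g by 1.33, Cd5 by 1.28, Cd2 by 1.07 and Cd4 by 0.69. None of these passed (limma adjusted p from 0.0871 to 0.356). Cd3e, a chain of the T cell receptor complex, differed by 0.03 from AAV-GFP and -0.15 from untreated liver, and Cd8b1, the partner chain of Cd8a, by 0.01 and -0.29.

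Among markers of plasmacytoid dendritic cells, known for type I interferon secretion, 2 of 7 rose, Ly6d by 4.18 and Bst2, itself interferon-induced, by 1.24 (limma adjusted p = 0.0103 and 0.0396). Their summed level was 85.4 to 125, 100.2 to 144 and 274.5 to 393 in untreated, AAV-GFP and AAV-hGRβ livers. Such a sum weights each probe by its brightness, and here it mostly follows Bst2, the brightest probe of the list, whose mean level was 6.59 in untreated and 8.09 in AAV-hGRβ livers. Siglech, a defining marker, was well above background on the 3 AAV-hGRβ arrays and on 0 others, and did not pass (at least 1.25-fold, limma adjusted p = 0.510). Tcf4, a transcription factor of these cells, differed by -0.11 from AAV-GFP and -0.43 from untreated liver. Of 8 Kupffer cell and macrophage markers 0 rose against AAV-GFP, with a median difference of 0.60. Against untreated liver 2 rose and 0 fell, with a median of 1.05. The 2 were Clec4f at 1.18 and Cd5l at 1.26 (limma adjusted p = 0.0377 and 0.0449). The summed level of this list was 78.1 to 102, 77.0 to 152 and 193 to 275 in the same order of groups. Marco, a gene of this list, had no value on an AAV-GFP array, so the sum of that array leaves it out. Of 3 B cell, 5 neutrophil and monocyte, 7 endothelial and 8 hepatocyte markers 0 were called against AAV-GFP, with medians of 0.69, 1.19, -0.22 and -0.34.

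The genes whose levels most resembled each member's over the 9 arrays are given as a description, by Pearson's r across arrays that fall into groups. Genes known only by a clone, accession or predicted-gene name, and genes without a value on every array, were left out of this ranking. For Ifnb1 they were Rnf213 (r = 0.979), Ifi27l2b (0.977), Fanci (0.976), Parp14 (0.971) and Oas2 (0.967). Rnf213 had mean levels of 3.03 ± 0.26, 2.84 ± 0.20 and 4.39 ± 0.11 (SD, n = 3) in untreated, AAV-GFP and AAV-hGRβ livers, so it followed the step in Ifnb1. For Ifng they were Ctsw, a protease of cytotoxic lymphocytes (r = 0.971) and Psmb10, a subunit of the immunoproteasome (0.960). For Ifnar1 they were Atp2a2 (0.994), Ap3d1 (0.991) and Hectd4 (0.985), and for Ifnar2 Chn2 (0.966), Mtfp1 (0.938) and Sdc2 (0.933). Ifngr1 was most like Tmem50b (0.991), Slf1 (0.986) and Fbxo30 (0.985), and Ifngr2 most like Snhg11 (0.990), Gal3st2 (0.960) and Vil1 (0.954).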

How the data were processed

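Per the file headers, the deposited value of a spot is a linear Cy3 intensity from which the software had already taken background and spatial trend. The submitters' processing notes name Feature Extraction 9.5. The deposited series table holds the same intensity values as the array files (largest difference 0, column medians 34.2 to 75.6), neither centred nor logged. Positions are on build mm7, per the file headers.

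Here, spots flagged as outliers were left out and spots of a probe were averaged. Values are log2 intensity minus the array's 75th percentile. A probe entered if every array of 1 or more groups had it well above background (24273 probes), meaning that at least 0.5 of its spots were. The brightest passing probe stood for its gene. Groups were compared over all 9 arrays with limma 3.58.1 in R 4.3.3 (lmFit, eBayes) and Benjamini-Hochberg adjustment over 16796 genes at 0.05. A group not well above background was set at the array's lowest signal well above background for bounds ("at least"), or at its own signal where higher. Such a bound compares means of processed signal, makes no allowance for spread and is not a confidence limit. Probes were named by RefSeq accession (22951), symbol (6659) or older symbol (3109), and 8455 kept the file's name. The model was tested on simulated data. Replicate numbers did not pair arrays: same-numbered AAV-GFP and AAV-hGRβ arrays had deviations that correlated at 0.012, 0.242 and 0.006.

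The 6 genes, the gene and marker lists and the tests were chosen with earlier results of these data known. Named genes are all 6 members, up to 4 genes per list with the smallest p in AAV-hGRβ minus AAV-GFP, and genes of a list that passed there. The genes most correlated with each member, in the ranking described above, are named too. Mx1, Oas3, the class II presentation genes, the cell markers and the genes below background were named after their values were seen. AANNGAAA was searched after the promoters were read. Alternatives covered background correction, scaling, the filter, the choice of probe, scan day, slide, replicate number and leaving out each array. Some results that the rule would name are not reported here.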

Additional observations from a re-analysis of the deposited data

How the results depend on the processing

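In AAV-hGRβ minus AAV-GFP, Ifnb1 was called under 20 of 22 alternatives with a test, and no other gene of the 6 was called under any. The exceptions were normexp, which called 0 of the 6, and normexp with bright backgrounds replaced, also 0. These were the only alternatives that changed the background correction. The 20 that kept the call used the same processed signal as the main fit, so they cannot show how the call depends on background. Against untreated liver, 0 of the 6 were called under normexp and 0 with the replicate block, where Ifnb1 was 3.83 (limma adjusted p = 0.0689), and 4 within the first scan day (Ifnb1, Ifng, Ifnar1 and Ifngr1). Leaving out each array gave 1 of 6 against AAV-GFP, 1 to 2 against untreated liver and 0 between the controls.

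All genes called against AAV-GFP (154) came to 13 with normexp, 29 with no filter, 12 with every probe and no filter, 75 with only the groups compared, 254 with scan day as a block, 3 within the first day, 74 with slide as a random block and 2 with the replicate block, and 34 (without AAV-GFP replicate 1) to 166 with an array left out. It moved by more than 1.5 times also without untreated replicate 3 (97) or 4 (98), AAV-GFP replicate 2 (101), and AAV-hGRβ replicate 1 or 3 (47 each). Against untreated liver (547) they came to 45, 84, 71, 343, 1215, 4755, 59 and 1 under these settings, to 881 with bright backgrounds replaced, and to 94 (without untreated replicate 4) to 1956 (without untreated replicate 2); other arrays that moved it by more than 1.5 times were untreated replicate 3 (109), AAV-GFP replicate 2 (243) and AAV-hGRβ replicates 1 (319), 2 (275) and 3 (101). Between AAV-GFP and untreated liver (0) they came to 4 with median scaling, 1 each with quantile normalization, scan day as a block and the first day, and 0 to 1 with an array left out. The replicate block changed no other call of the 6 genes, and left 0 risen genes against AAV-GFP among the inhibitors, the inducers of type I interferon and both lists of targets.

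Signs turned as follows in AAV-hGRβ minus AAV-GFP. Under normexp: Ifnb1 -0.19, Ifng -0.18, Ifnar1 0.21, Ifnar2 0.53, Ifna1 -0.61, Ifnab -0.56, Ifna13 -0.42, Ifna9 -0.75, Il22ra1 -0.23, Il20rb -0.63, Il15 -0.52, Il12a -0.67, Tbx21 -0.30 and Irf3 0.52. Under median scaling: Ifna9 -0.10, Il20rb -0.063 and Hmga1 -0.21. Under quantile normalization: Ifna9 -0.050. With the mean of all probes: Ifnar2 0.037 and Irf3 0.041. Within the first day: Hmga1 -0.047. With slide as a random block: Ifnar1 0.011. Within the second day: Ifnar1 0.25, Ifngr1 -0.35, Ifnab -0.12, Ifna13 -0.15 and Il22ra1 -0.85. With an array left out, Il20rb ran from -0.037 (without AAV-GFP replicate 1) to 0.48, and Hmga1 reached -0.0093 (without AAV-hGRβ replicate 1). Against untreated liver: normexp gave Ifnb1 -0.044 and Ifnar2 0.39, the mean of all probes Ifnar2 0.098 and the second day Ifnar1 0.10. Between AAV-GFP and untreated liver: normexp gave Ifnb1 0.14 and Ifngr2 -0.0855, replaced backgrounds Ifnb1 0.13, the mean of all probes Ifng -0.074 and Ifnar2 0.061, the first day Ifnar2 0.0606 and Ifngr2 -0.017, the replicate block Ifngr2 -0.0065, and the second day Ifnb1 0.093 and Ifng -0.74. With an array left out, Ifnar2 ran from -0.076 to 0.083 (without untreated replicate 2) and was 0.012 without AAV-GFP replicate 1. Ifng ran from -0.34 (without untreated replicate 3) to 0.88 and was -0.036 without AAV-GFP replicate 3, and Ifngr2 ran from -0.0505 (without AAV-GFP replicate 3) to 0.11. The cause was not tested.

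Low signal limits the ligands most: Ifnb1 was well above background on 3 of 9 arrays, and with 3 arrays a group small changes in the receptors cannot be told from 0.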

Other observations

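In each group the array with the highest Ifnar1 level had the lowest Ifngr1 level: untreated replicate 4 (2.07 and 3.14), AAV-GFP replicate 1 (1.69 and 3.25) and AAV-hGRβ replicate 1 (1.52 and 4.13). The spread of Ifngr1 within AAV-GFP (SD 0.63) and untreated liver (SD 0.52) was larger than in AAV-hGRβ (SD 0.22), and the same held for Ifnar1 (SD 0.21, 0.33 and 0.15). The remaining arrays did not follow an opposite order in every group. The pattern was noticed in the data and was not tested.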
